A study of Mus musculus with 1920 samples.

Results

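Microglia taken from the facial nucleus 14 days after the facial nerve was cut were compared with microglia taken 3 days after it was cut. The wells of both days were found by their treatment labels, all on 1 plate, and 380 were labelled as cells. A well was kept with at least 20000 gene counts, 500 detected genes, under 25% mitochondrial reads and under 50% spike-in reads, which left 339 of the 1644 cells kept in the series. These were 168 cells of day 3 and 171 of day 14. The lowest kept well had 24096 gene counts, and the highest well left out for its counts had 17968. Cells of 1 mouse are not replicates, so their counts were summed per mouse, which gave 4 sums for day 3 and 4 for day 14. Each replicate label was taken as 1 mouse; the series text gives 3 to 4 mice per condition, and equal replicate numbers at different days are not tied to 1 animal. The series as a whole measured single microglia of CD1 mice aged 16 weeks in 10 groups, namely 6 untreated regions, both days of axotomy, and cuprizone demyelination and remyelination. The 3 groups from the facial nucleus were untreated tissue, axotomy day 3 and axotomy day 14, and none of them carries a transgene or a deleted gene according to the labels. For axotomy wells the tissue field names the nerve whereas the source name gives the nucleus, and they were treated as facial nucleus. Neither the side of the lesion nor a sham operation is given in the sources used here. Sorting used antibodies to CD206, Ly6G, Ly6C, CD45 and CD11b, and each well became a Smart-seq2 library, which reads full-length cDNA without molecular identifiers.

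The facial nucleus in the brainstem holds the cell bodies of the motor neurons that drive the muscles of the face. When their axons are cut outside the skull the neurons react but the blood-brain barrier stays closed, so the resident microglia answer with little contribution from blood cells. They divide in the first days, move to the damaged cell bodies and strip synapses from them, and later return toward their resting state as axons regrow. The 2 days sampled here address how microglia differ between the early and the late stage of this reaction.

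Total counts per mouse ran from 8841994 to 10864376 at day 3 and from 5298853 to 11860778 at day 14. Median counts per cell were 183957 to 207996 at day 3 and 109192 to 280094 at day 14, the deepest mouse of day 14 being replicate 4. Day 3 filled plate columns 1 to 12 and day 14 columns 13 to 24, so the side of the plate and the day cannot be told apart. Uninjured facial nucleus lay on another plate, and its levels are given for orientation. Levels below are CPM, counts divided by the TMM-scaled library total, given per mouse or as mean ± SD over 4 mice. They are not divided by gene length and are compared only within a gene. Adjusted p-values are from edgeR's quasi-likelihood test over all 19319 genes tested. Both days carried microglial markers. The homeostatic receptor gene P2ry12 had a read in 98.3% of day 3 cells and 98.1% of day 14 cells after each cell was thinned to 20000 counts. For Tmem119, a microglial surface protein gene, the shares were 95.7% and 94.8%. Of 20 empty control wells, with a median of 524.5 gene counts, 16 had a P2ry12 read and none passed the filters.

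Between day 3 and day 14, 5 genes fell and none rose, which is 0.0259% of the genes tested. Positions below are of GRCm38 with GENCODE vM21 names. In all 5 each mouse of day 14 lay below every mouse of day 3, and each mouse of day 3 lay above every uninjured mouse. The mitochondrial gene mt-Cytb (ENSMUSG00000064370, chromosome M, 14145 to 15288) encodes cytochrome b of respiratory complex III. Its level was 12661, 11427, 11560.0 and 8681 CPM in the 4 mice of day 3 and 4674, 4368, 6080.5 and 5375 in the 4 of day 14. The levels do not overlap, and the uninjured mice lay lower again, at 2929.8, 2622, 3215 and 2534. The difference was -1.11 ± 0.15 SE on the log2 scale (adjusted p = 0.0137). Complex IV subunit 1 is encoded by mt-Co1 (ENSMUSG00000064351, chromosome M, 5328 to 6872), which stood at 7974, 7526, 8144 and 5377 CPM at day 3 and at 2804, 2224, 3382 and 3905 at day 14 (-1.24 ± 0.20 SE, adjusted p = 0.0445). At day 3 the lowest mouse for both mitochondrial genes was replicate 4, and the days did not overlap for either gene.

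The haematopoietic small GTPase gene Rac2 (ENSMUSG00000033220, chromosome 15, 78559167 to 78572783), which activates the phagocyte NADPH oxidase and actin remodelling, was 687, 509, 615 and 539.6 CPM at day 3. At day 14 it was 179.8, 137, 235 and 197 (-1.65 ± 0.27 SE, adjusted p = 0.0445). Every mouse of day 14 lay within or below the range of the uninjured mice, 155 to 271. Gatm (ENSMUSG00000027199, chromosome 2, 122594467 to 122611303) encodes the enzyme of the first step of creatine synthesis. It was 4282, 5050.2, 3823 and 3960.4 CPM at day 3 against 1947, 1965, 2394 and 2341 at day 14 (-0.99 ± 0.16 SE, adjusted p = 0.0445). Ly86 (ENSMUSG00000021423, chromosome 13, 37345208 to 37419036) encodes MD-1, the partner of the Toll-like receptor homologue RP105. It was 4393, 5058, 5484 and 4009.6 CPM at day 3 against 2599, 1694, 2188 and 2599.8 at day 14 (-1.06 ± 0.18 SE, adjusted p = 0.0452). Uninjured mice had 2057 ± 265 CPM of Gatm and 2056 ± 329.5 of Ly86. Both ranges overlapped those of day 14, although 1 mouse of day 14 for Gatm and a pair of mice for Ly86 lay above every uninjured mouse. The count of 5 depended on the samples fitted. With both days fitted alone, without the uninjured mice, none of the 5 passed (adjusted p of 0.0553 for mt-Cytb, 0.0968 for mt-Co1, 0.106 for Rac2, 0.112 for Gatm and 0.125 for Ly86). The count was 0, 0, 2 and 5 without day 3 replicate 1, 2, 3 and 4, and 3, 0, 1 and 20 without day 14 replicate 1, 2, 3 and 4. Within edgeR, upper-quartile scaling gave 1 up and 6 down, and RLE scaling gave 0 up and 3 down. DESeq2, a different test run without the filter on low counts, gave 231 up and 131 down.

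**Figure D1:**
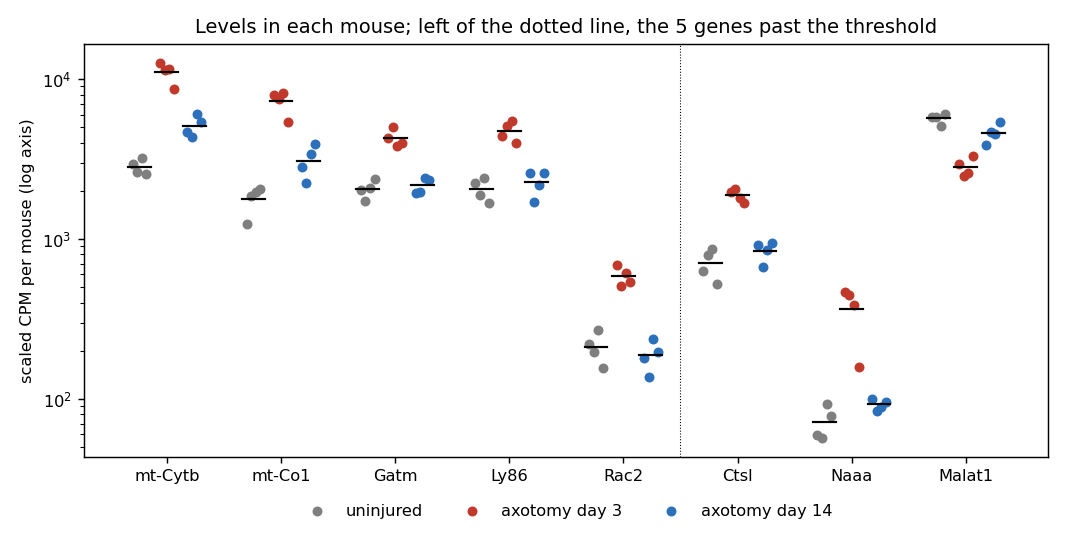
Scaled CPM on a log axis in each of 4 mice per group for 8 genes, with a black bar at the mean; grey is uninjured facial nucleus, red axotomy day 3, blue axotomy day 14. For the 5 genes left of the dotted line every blue point lies below every red point, as for mt-Cytb at 4368 to 6080.5 against 8681 to 12661 CPM, while for Malat1 every blue point lies above.

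The 5 called genes differed in how they were spread over cells. After thinning, the median cell of the 4 day 3 mice had 141, 147, 164 and 87 reads of mt-Cytb, against 74, 63, 82 and 62 in the day 14 mice. For Gatm the median cell had 56, 62, 60 and 46 reads at day 3 and 25, 38, 30 and 35.5 at day 14, and for Ly86 62, 60, 76 and 52 against 36.5, 28, 43.5 and 37. For these genes the medians did not overlap between the days either, and a read of Gatm was found in 95.0% to 100% of the cells of each mouse and of Ly86 in 90.0% to 97.8%. Rac2 was different in kind, since the median cell had no read in any day 14 mouse and in 2 of the 4 day 3 mice. The share of cells with a Rac2 read after thinning was 65.1, 48.9, 65.1 and 40.5% at day 3 and 37.5, 27.7, 25 and 40% at day 14 (exact permutation test, two-sided, p = 0.029, adjusted over 17 genes 0.121). That raw p is the smallest that 4 against 4 mice allow. It could pass the adjustment over 17 genes only if many of them shared it.

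The mitochondrial genome encodes subunits of the respiratory chain, their ribosomal RNAs and transfer RNAs. Of 37 such RNAs 21 were tested, and 20 had a lower mean at day 14, with a median log2 fold change of -1.04 against 0.10 over all genes tested. mt-Cytb and mt-Co1 were past the threshold, 8 had an unadjusted p under 0.05 in the lower direction (3.76% of all genes did), and in 10 the mice of day 14 all lay below those of day 3 (2.36% of all genes). Levels of the large ribosomal RNA mt-Rnr2 were 7666, 6705, 7986 and 4916 CPM at day 3 and 3097, 2617, 3233 and 4323 at day 14 (adjusted p = 0.0624). The complex I genes mt-Nd5 and mt-Nd6 had 3149.9 ± 556 and 956 ± 185 CPM at day 3, and 1222 ± 401 and 376 ± 96.5 at day 14 (adjusted p = 0.0674 and 0.0745). None of these 3 passed, though their mice did not overlap. The share of all reads that were mitochondrial is made of the same reads and is not a separate observation. The median cell had 3.02%, 3.41%, 3.64% and 1.95% at day 3 and 1.67%, 1.53%, 1.42% and 1.60% at day 14. In uninjured mice it had 0.762% to 1.30%. An upper limit on this share was among the filters on wells. Without these filters the difference was -0.82 for mt-Cytb (adjusted p = 0.302) and -0.88 for mt-Co1 (adjusted p = 0.48). For Rac2, Gatm and Ly86 it was then -1.62, -0.92 and -1.05. Which of the filters accounts for these shifts was not tested. With mitochondrial reads left out of the sums no gene passed the threshold, 1263 had an unadjusted p under 0.05, and Rac2, Gatm and Ly86 stood at -1.65, -0.99 and -1.06 with an adjusted p of 0.0707 each.

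Genes of the respiratory chain that lie in the nucleus were lower by less. Of 75 tested, 65 had a lower mean at day 14 (median log2 fold change -0.54), and none passed the threshold. An unadjusted p under 0.05 in the lower direction was found for 6 of them, beside 3.76% of all genes. The ATP synthase subunit genes Atp5b and Atp5a1 stood at 841 ± 397 and 620.0 ± 181 CPM at day 3 and at 393 ± 95.3 and 315 ± 109 at day 14 (adjusted p = 0.375 and 0.484). Genes that replicate, transcribe and translate mitochondrial DNA showed no such lean, with 7 of 18 lower and a median of 0.21. The helicase gene Twnk, for one, was 17.5 ± 7.99 CPM at day 3 and 28.3 ± 11 at day 14 (adjusted p = 0.999). Among 18 genes of glycolysis, 15 were lower (median -0.71). Lactate dehydrogenase gene Ldha was 182, 232, 305 and 172 CPM at day 3 and 139, 76.1, 115 and 106 at day 14, without overlap (adjusted p = 0.541). A lean toward lower values was general among well-measured genes: of 4767 with a mean of at least 50 CPM on 1 day, 3233 (67.8%) had a lower fitted value at day 14, with a median of -0.31. The medians of the lists are to be read beside this value as well as beside 0.10.

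**Figure D2:**
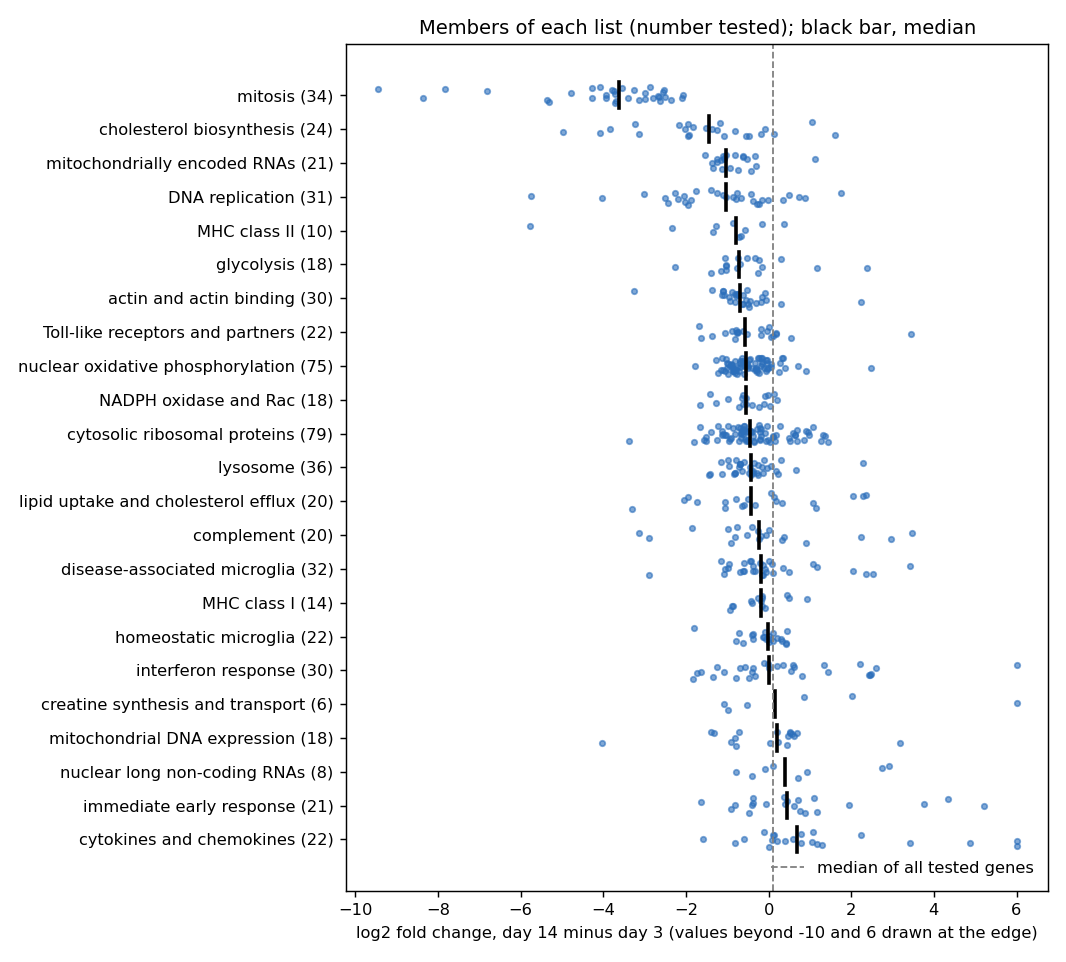
Fitted log2 fold change, day 14 minus day 3, of every tested member (blue points) of 23 gene lists, with the number tested in brackets, a black bar at the list's median and a dashed line at the median of all tested genes, 0.10. The mitosis list lies lowest, with a median of -3.63, and cytokines and chemokines highest, with 0.68.

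Genes of mitosis had the lowest median of the 23 programme lists. They encode the cyclins, kinases, motors and ubiquitin machinery that carry a cell through division. All 34 were lower at day 14, 27 with an unadjusted p under 0.05, 27 without overlap between the mice, and none past the threshold (median log2 fold change -3.63). Over all genes tested 3.76% had such a p in the lower direction, and 2.36% lay below without overlap. The ubiquitin-conjugating enzyme gene Ube2c, which works with the anaphase-promoting complex, was 66.2, 174, 203 and 88.8 CPM at day 3 and 1.97, 0, 0.248 and 0.183 at day 14 (adjusted p = 0.0614). Its partner Cdc20, an activator of that complex, was 86.2, 219, 119.7 and 40.9 CPM against 0.164, 0.132, 0.124 and 0.183 (adjusted p = 0.0829). Every day 14 mouse was near 0 for both genes. Pimreg, a regulator of mitosis, was 71.3, 87.7, 173 and 126 CPM against 3.78, 0, 0 and 0.366 (adjusted p = 0.107). The proliferation marker Mki67 was 160.4, 207, 196 and 60.3 CPM at day 3 and 7.23, 10.7, 2.48 and 38.2 at day 14 (adjusted p = 0.542). Topoisomerase gene Top2a was 89.8, 183, 362 and 64.5 CPM against 0.657, 0.132, 27.9 and 30.5 (adjusted p = 0.505). All 3 lay lower in each mouse of day 14 than in any mouse of day 3, and their spread among mice was wide. Mki67 was read in 16.3, 13.3, 16.3 and 8.11% of thinned cells at day 3 and 2.5, 6.38, 2.27 and 7.50% at day 14 (exact permutation p = 0.029, adjusted 0.121). Of the 17 genes whose shares were tested, 4 had this p and none passed after adjustment. DNA replication genes leaned less: 26 of 31 had a lower mean (median -1.03). An unadjusted p under 0.05 in the lower direction was found for 3 of them, beside 3.76% of all genes. The helicase subunit gene Mcm6 was 17.6, 37.2, 218 and 81.9 CPM at day 3 and 66.0, 2.78, 9.43 and 9.53 at day 14 (adjusted p = 0.691), with overlap between the days.

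The promoters of 3 mitosis genes are shown because these genes had lower levels together. They are the members with the lowest p that have an entry in the RefSeq promoter table (GRCm38.p6). Each runs 5′ to 3′ on the gene's strand and ends before the start given by RefSeq and by GENCODE. Capitals mark the CCAAT box (CCAAT, or ATTGG where it lies on the other strand) and the letters TTTGAA, one form of the cell cycle homology region; TTTAAA, another form, was also searched on both strands.
Ube2c, chr2:164769679-164769897, plus strand: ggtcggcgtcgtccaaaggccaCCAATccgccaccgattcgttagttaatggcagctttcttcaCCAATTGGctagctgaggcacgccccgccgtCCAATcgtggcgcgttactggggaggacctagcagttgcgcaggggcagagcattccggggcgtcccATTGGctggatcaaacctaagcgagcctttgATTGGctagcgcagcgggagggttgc
Cdc20, chr4:118437353-118437593, minus strand: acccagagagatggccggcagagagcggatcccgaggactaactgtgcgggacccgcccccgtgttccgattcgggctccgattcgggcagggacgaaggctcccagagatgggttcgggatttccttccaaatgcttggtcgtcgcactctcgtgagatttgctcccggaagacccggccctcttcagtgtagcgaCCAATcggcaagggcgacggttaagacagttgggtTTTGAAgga
Ccnb2, chr9:70421555-70421804, minus strand: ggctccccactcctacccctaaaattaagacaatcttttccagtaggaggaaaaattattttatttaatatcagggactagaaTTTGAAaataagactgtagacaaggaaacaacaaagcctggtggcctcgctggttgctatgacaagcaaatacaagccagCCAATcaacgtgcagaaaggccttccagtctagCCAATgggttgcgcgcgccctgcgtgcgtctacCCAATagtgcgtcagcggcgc

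The Ube2c window held 6 CCAAT matches, of which a pair on opposite strands overlap within CCAATTGG, and neither of the other motifs. Cdc20 held 1 CCAAT and 1 TTTGAA, and Ccnb2, a B-type cyclin gene at 99.8 ± 43.1 CPM at day 3 and 2.44 ± 2.84 at day 14, held 3 and 1. Of all 32851 windows of 250 bases before a start in that table, 33.8% held CCAAT, 10.1% at least 2 of them, and 25.2% held TTTGAA or TTTAAA. A match of letters is a description and not evidence of a bound factor.

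Mitosis genes were concentrated in few cells. A cell was counted as dividing when at least 5 of the 34 genes had a read after thinning. By this rule 24 of 168 day 3 cells were dividing, 9.30%, 15.6%, 20.9% and 10.8% in the 4 mice, against 3 of 171 day 14 cells, 2.5%, 0%, 2.27% and 2.5%. In uninjured mice 2 of 161 cells were. None of the 3 dividing cells of day 14 had more than 5 of these genes, whereas 18 cells of day 3 had at least 10 and the highest had 30. With a threshold of 10 the share was 10.7% ± 5.40 at day 3 and 0% at day 14, and with a threshold of 3 it was 26.3% ± 4.45 against 14.4% ± 6.60. Cells with 3 or 4 of these genes numbered 20 at day 3 and 21 at day 14. Dividing cells of day 3 were deep, with a median of 334890 counts against 191370 in the other cells, and they supplied 20.3% of the counts of day 3. Whether any well held 2 cells was not tested.

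**Figure D3:**
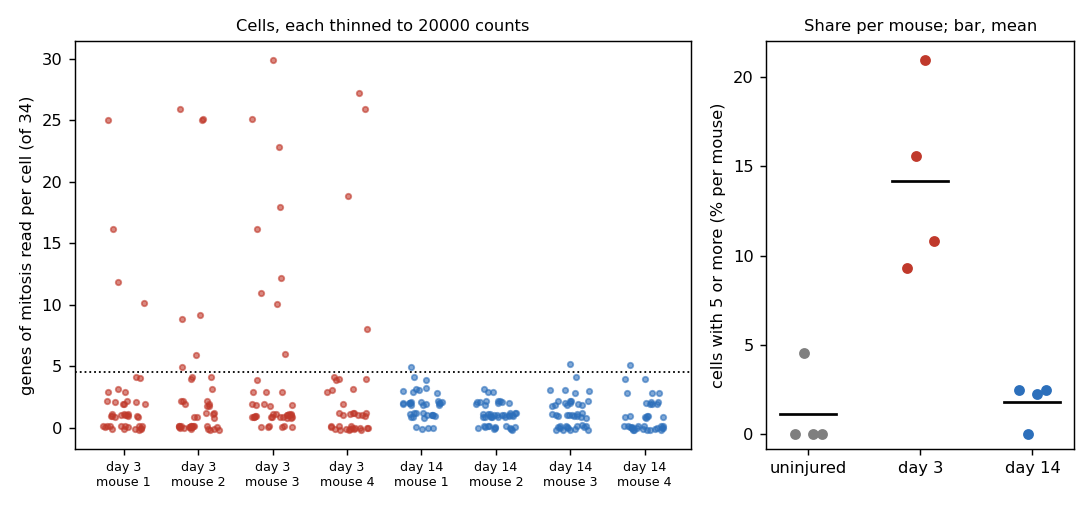
Left, the number of 34 mitosis genes with a read in each cell of the 4 mice of each day, after thinning to 20000 counts (points jittered; dotted line, the threshold of 5). Right, the percent of cells at or above it per mouse with a bar at the mean; day 3 mice lie at 9.30% to 20.9%, day 14 mice at 0% to 2.5% and uninjured mice at 0% to 4.55%.

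The dividing cells also carried more of several other transcripts, which bears on the sums. In all 4 day 3 mice their summed CPM exceeded that of the other cells of the same mouse for Rac2, Ly86, mt-Co1, the tubulin gene Tubb5, the galectin gene Lgals1, Tmsb4x and Actb. For Rac2 it was 900.1, 938, 828 and 1384 in dividing cells and 531, 307, 470.1 and 315 in the others. These CPM were divided by the plain count total without TMM scaling, so they are not on the scale of the levels above. mt-Cytb and Gatm were higher in dividing cells in 3 of 4 mice and lower in replicate 3. The reverse held for P2ry12, Tmem119 and the nuclear RNA Malat1, lower in dividing cells in all 4 mice. Each mouse gave only 4 to 9 dividing cells, and these values are descriptions. Without the dividing cells of both days no gene passed the threshold, with 1117 genes at an unadjusted p under 0.05. The differences of the called genes were then -0.89 for mt-Cytb, -1.0 for mt-Co1, -1.22 for Rac2, -0.69 for Gatm and -0.88 for Ly86, with adjusted p between 0.525 and 0.586. All 5 kept their direction. Tubb5 did not: its fitted difference went from -1.11 to 0.26, and those of Mki67 and Top2a went to 1.29 and 0.92. The cholesterol list's median went from -1.44 to -0.44 and that of DNA replication from -1.03 to -0.38, while lysosome (-0.44 both ways), Toll-like receptor (-0.57 both ways) and glycolysis genes (-0.71 and -0.67) hardly moved. The mitosis list itself went to 0.58, which its use in choosing the cells sets. The values of the proliferation genes Mki67 and Top2a are not independent of that choice either.

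**Figure D4:**
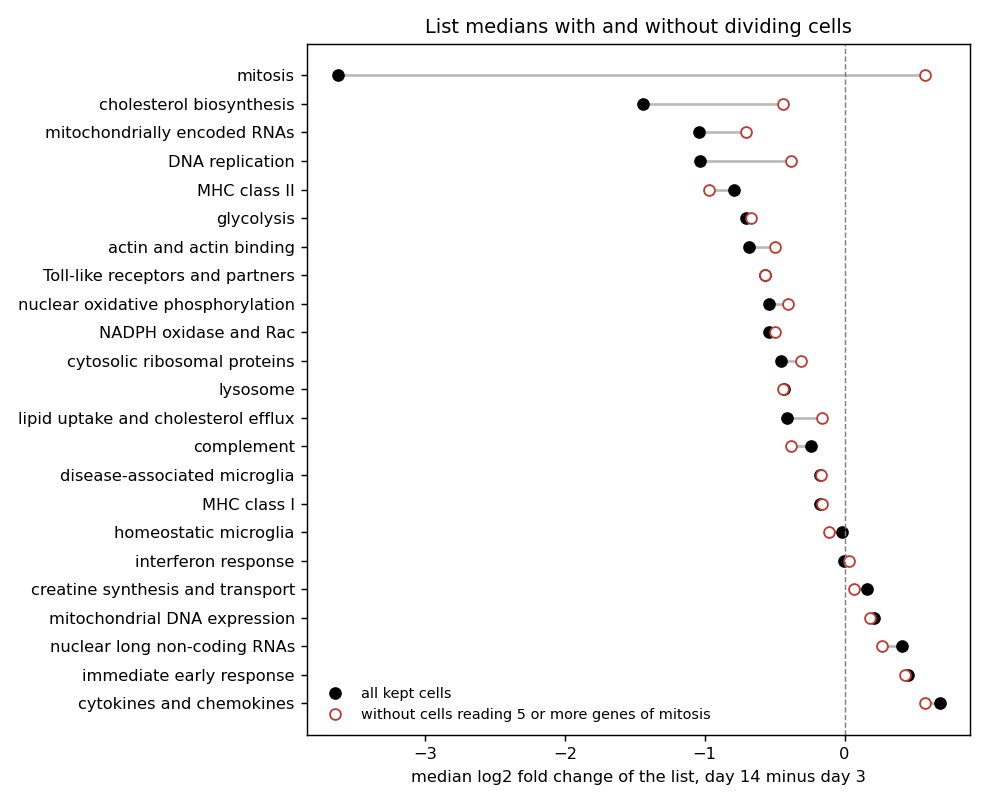
Median log2 fold change, day 14 minus day 3, of each of 23 lists with all kept cells (filled) and without cells with 5 or more mitosis genes (open), joined by a line; dashed line at 0. Mitosis, cholesterol biosynthesis (-1.44 to -0.44) and DNA replication (-1.03 to -0.38) shift to the right, and lysosome and Toll-like receptor genes stay in place.

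Cholesterol biosynthesis genes, which turn acetyl-CoA into sterols for new membrane, had the second lowest median. Of 24, 21 had a lower mean at day 14, 7 with an unadjusted p under 0.05 and none past the threshold (median -1.44). Over all genes 3.76% had such a p in the lower direction. Hmgcs1, the synthase that feeds the pathway's rate-limiting step, was 33.5, 83.0, 188 and 56.5 CPM at day 3 and 0.328, 22.1, 1.12 and 1.56 at day 14 (adjusted p = 0.378). The farnesyl diphosphate synthase gene Fdps was 33.3, 72.5, 30.8 and 12.8 CPM against 2.46, 3.17, 0.124 and 3.02 (-4.08 ± 1.43 SE, adjusted p = 0.541), and the difference was -2.71 without dividing cells. The mice of the days did not overlap for either gene. Hmgcs1 was read in 6.98, 15.6, 16.3 and 18.9% of cells at day 3 and 0, 4.25, 2.27 and 2.5% at day 14 (exact permutation p = 0.029, adjusted 0.121). The sterol dehydrogenase gene Nsdhl was 190.4, 119.6, 17.2 and 67.7 CPM at day 3 and 18.1, 30.9, 15.4 and 23.2 at day 14, with overlap (adjusted p = 0.542). In the opposite direction, the cholesterol exporter gene Abcg1 was 59.3, 22.4, 23.5 and 3.72 CPM at day 3 and 91.1, 141, 191 and 111 at day 14, every mouse above those of day 3 but not past the threshold (adjusted p = 0.426). The lipoprotein receptor gene Scarb1 was 118 ± 67.5 CPM against 28.8 ± 20.6 (adjusted p = 0.426). As a list the 20 genes of lipid uptake and efflux were split, 11 lower and 9 higher.

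Promoters of 2 members of the sterol pathway, chosen by the same rule, are shown with CCAAT boxes and the sterol regulatory element letters TCACNCCAC and CACCCCAC in capitals, on either strand.
Hmgcs1, chr13:119690101-119690350, plus strand: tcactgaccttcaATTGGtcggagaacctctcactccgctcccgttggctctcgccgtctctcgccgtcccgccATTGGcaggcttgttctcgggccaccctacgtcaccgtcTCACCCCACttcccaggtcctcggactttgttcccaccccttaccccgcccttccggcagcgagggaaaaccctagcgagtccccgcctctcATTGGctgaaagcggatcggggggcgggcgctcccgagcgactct
Nsdhl, chrX:72918271-72918520, plus strand: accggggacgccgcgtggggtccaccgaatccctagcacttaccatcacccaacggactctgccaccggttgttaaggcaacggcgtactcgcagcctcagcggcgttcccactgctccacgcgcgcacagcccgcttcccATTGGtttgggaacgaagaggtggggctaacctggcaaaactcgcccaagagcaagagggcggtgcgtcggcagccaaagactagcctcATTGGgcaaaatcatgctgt

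The Hmgcs1 window held 3 CCAAT matches and 1 match of each sterol element form, which overlap in TCACCCCAC. Nsdhl held 2 CCAAT matches and neither sterol form. Of all windows 1.05% held TCACNCCAC and 2.58% held CACCCCAC. No match says only that these letters are not in the window.

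Of 36 lysosomal genes, 30 (83.3%) had a lower mean at day 14 (median -0.44). Among the 33 with at least 50 CPM on 1 day, 29 were lower (median -0.44). Of all well-measured genes 67.8% had a lower fitted value, with a median of -0.31. An unadjusted p under 0.05 in the lower direction was found for 12 of them (3.76% of all genes tested), and none passed the threshold. Cathepsin L gene Ctsl, a lysosomal protease, was 1969, 2047, 1801 and 1684 CPM at day 3 and 914, 666, 857 and 937 at day 14 (-1.15 ± 0.20 SE, adjusted p = 0.0614). Progranulin gene Grn was 2509, 3335, 2748 and 3071 CPM against 1271, 987, 1737 and 1917 (adjusted p = 0.0958). Both had mice that did not overlap. Prosaposin gene Psap was 4240.0 ± 523 CPM at day 3 and 2394 ± 754 at day 14 (adjusted p = 0.214). Outside the list, the lysosomal amidase gene Naaa was 466, 445, 389 and 158 CPM at day 3, where replicate 4 stood lowest, and 100, 84.5, 88.7 and 95.5 at day 14 (adjusted p = 0.0646). The lysosomal thiol reductase gene Ifi30, which prepares antigens for MHC class II, was 606 ± 62.1 CPM against 235 ± 52.6 (adjusted p = 0.0745).

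Lists of sensing and phagocytosis are given below over all tested members, and 46.4% of all tested genes were lower. Of well-measured genes 67.8% were lower, with a median of -0.31. Among members with at least 50 CPM on 1 day, 9 of 9 complement genes were lower (median -0.51). At that limit 12 of 17 Toll-like receptor genes and partners were lower (-0.62), 13 of 15 NADPH oxidase and Rac genes (-0.54) and 25 of 25 actin genes (-0.64). Among 20 complement genes 13 were lower (65.0%, median -0.24) and 5 had an unadjusted p under 0.05. Over all genes 3.76% had such a p in the lower direction. The C1q chain gene C1qc was 5548, 4582, 5167 and 4771 CPM at day 3 and 3002, 2573, 3532 and 2738 at day 14 (adjusted p = 0.0745). The receptor gene for complement fragment C5a, C5ar1, was 204, 231, 227 and 314 CPM against 106, 47.6, 42.1 and 72.7 (adjusted p = 0.0928). The integrin gene Itgam, which encodes CD11b, a marker of the sort, was 704 ± 97.0 CPM against 376 ± 56.6 (adjusted p = 0.254). In all 3 the days did not overlap. Of 22 Toll-like receptor genes and partners 15 were lower (68.2%, median -0.57), with Ly86 the 1 past the threshold. Tlr13, an endosomal sensor of bacterial ribosomal RNA, was 292, 531, 344 and 305 CPM at day 3 and 193, 282, 129 and 195 at day 14 (adjusted p = 0.541). Of 18 NADPH oxidase and Rac genes 15 were lower (83.3%, median -0.54), with Rac2 the 1 past the threshold. The oxidase subunit gene Ncf4 was 176, 144, 254 and 224 CPM against 58.5, 89.5, 53.9 and 98.0 (adjusted p = 0.239). Actin and its binding proteins, which shape processes and phagocytic cups, were lower in 28 of 30 genes (93.3%, median -0.68). Of these 13 had an unadjusted p under 0.05, beside 3.76% of all genes in the lower direction. The monomer-binding peptide gene Tmsb4x was 8769, 10287, 8513 and 8439 CPM at day 3 and 4206, 4947, 6012 and 5734 at day 14 (-0.78 ± 0.15 SE, adjusted p = 0.0745), and the difference was -0.46 without dividing cells. Actb was 8793 ± 1151 CPM against 5191 ± 1170.3 (-0.76 ± 0.16 SE, adjusted p = 0.0988), with -0.51 without dividing cells, and the actin bundler gene Lcp1 669 ± 176 against 315 ± 66.7 (adjusted p = 0.235).

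Homeostatic microglial genes were split as a list: 11 of 22 were lower and 11 higher, with a median of -0.02. That median changed sign in 17 of 26 alternative fits. An unadjusted p under 0.05 by edgeR was found for 4 members in the lower direction and 0 in the higher. Over all genes it was found for 3.76% and 2.84%. Single members went their own ways. P2ry12 was 8155, 8735, 6140.0 and 6506 CPM at day 3 and 5238, 8826, 5188 and 10452 at day 14, and Tmem119 3101, 2889, 2527 and 2275 against 1778, 3438, 2254 and 4064. Day 14 replicates 2 and 4 were high and replicates 1 and 3 low for both genes, and the fitted differences were 0.01 and 0.10 (adjusted p = 0.999 for each). The Fc receptor-like gene Fcrls was 882, 1413, 1379 and 1860.5 CPM at day 3 and 415, 605, 172 and 381 at day 14, without overlap (adjusted p = 0.405). Olfml3, a secreted microglial product, was 2761 ± 484 CPM against 1592 ± 801 (adjusted p = 0.534). Of 32 disease-associated microglia genes, switched on around damaged neurons and plaques, 21 were lower (median -0.18) and none passed. The lipid carrier gene Apoe was 39.3, 436, 65.7 and 1417 CPM at day 3 and 2851, 44.3, 4664 and 487 at day 14 (adjusted p = 0.999), so replicates 1 and 3 of day 14 were far above replicate 2, and the days overlapped. These 2 mice were also those with the lower P2ry12 and Tmem119 of that day. Apoe was read in 9.30, 15.6, 6.98 and 13.5% of cells at day 3 and 32.5, 12.8, 45.5 and 42.5% at day 14 (exact permutation p = 0.0857, adjusted 0.182). The cystatin gene Cst7 was 14.4, 26.2, 92.3 and 21.1 CPM at day 3 and 18.2, 0.132, 54.2 and 0 at day 14, with replicates 1 and 3 again the higher of day 14, and was not read in the uninjured mice. The osteopontin gene Spp1 was 0.230, 99.3, 422 and 171 CPM against 119.7, 0, 169 and 70.1. For both genes the days overlapped (adjusted p = 0.999 for each). The tetraspanin gene Cd63 was 144 ± 61.6 CPM at day 3 and 111 ± 41.7 at day 14 (adjusted p = 0.999), both above the uninjured 28.7 ± 4.80. Lgals1, a galectin gene of activated and dividing cells, was 139.6, 199.7, 260.1 and 173 CPM against 60.6, 14.9, 35.4 and 127 (-1.70 ± 0.58 SE, adjusted p = 0.541), and without dividing cells the fitted difference was -0.65 (adjusted p = 1.0). It was read in 30.2, 31.1, 51.2 and 35.1% of cells at day 3 and 10, 10.6, 11.4 and 15% at day 14 (exact permutation p = 0.029, adjusted 0.121). Without dividing cells the mean shares were 31.0% and 11.3% (exact permutation p = 0.029, adjusted 0.243).

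Interferon response genes were also split, 15 of 30 on each side with a median near 0. That median ran from -1.37 to 0.38 over 26 alternative fits and changed sign in 19 of them. Among the 18 members with at least 50 CPM on 1 day, 10 were lower (median -0.40). Ifi27l2a, an interferon-induced mitochondrial protein gene, was read in 25.6, 37.8, 44.2 and 24.3% of cells at day 3 and 12.5, 0, 25 and 5% at day 14 (exact permutation p = 0.0571, adjusted 0.182). Cxcl10, an interferon-induced chemokine gene, was 893 CPM in day 14 replicate 3 and at most 3.25 in the other 7 mice of both days. Of 10 MHC class II genes 9 were lower (median -0.79). The class II chain gene H2-Aa rested on 1 mouse, with 0.115, 0.108, 8.90 and 292 CPM at day 3 and 0, 4.36, 0 and 1.10 at day 14. Among 14 MHC class I genes 11 were lower (median -0.18). No member of these 3 lists passed. Of 79 cytosolic ribosomal protein genes 57 were lower (72.2%, median -0.45). Among the 28 with at least 50 CPM on 1 day, 27 were lower (median -0.63), beside 67.8% of all well-measured genes (median -0.31). In 14 of the 79 the day 14 mice all lay below, as in 2.36% of all genes and 6.36% of well-measured ones. Rplp0 was 356 ± 90.6 CPM at day 3 against 151 ± 49.7 at day 14 (adjusted p = 0.375) and Rpl32 246 ± 26.7 against 103 ± 33.4 (adjusted p = 0.375). Ribosomal protein genes have many pseudogenes, so these levels are uncertain.

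Over all genes tested 10348 had a higher and 8971 a lower mean at day 14. Among well-measured genes, with at least 50 CPM on 1 day, fewer were higher: 50 of 4767 (1.05%) had all 4 mice of day 14 above all 4 of day 3, against 303 (6.36%) below. None passed the threshold by edgeR, with 549 of all genes (2.84%) higher before adjustment at p under 0.05. Over all genes 2.23% had every day 14 mouse above and 4.59% had no overlap in either direction. DESeq2 called 362 genes, 1.73% of those it tested, of which 231 were higher. Malat1 (ENSMUSG00000092341, chromosome 19, 5795690 to 5802672), an untranslated RNA kept in nuclear speckles, was 2957, 2488, 2589 and 3324 CPM at day 3 and 3861, 4691, 4547 and 5375 at day 14 (0.70 ± 0.15 SE, adjusted p = 0.108). Uninjured mice had 5822, 5803, 5069 and 6017, and day 14 replicate 4 was the 1 injured mouse within their range. Cytokine and chemokine genes leaned upward, 17 of 22 (median 0.68), 4 with an unadjusted p under 0.05. Interleukin 6 gene Il6 was 0.115, 0.646, 4.93 and 2.04 CPM at day 3 and 20.2, 100.5, 77.9 and 30.8 at day 14 (adjusted p = 0.116). Uninjured mice had 117, 17.5, 50.6 and 27.1 CPM, so the low value was that of day 3. The chemokine gene Ccl6 was 206, 85.1, 207 and 93.0 CPM against 282, 286, 313 and 442 (adjusted p = 0.443). Of 21 immediate early genes 13 were higher (median 0.45). Jun, a subunit of the AP-1 transcription factor, was 5.40, 28, 9.99 and 15.8 CPM at day 3, 34.8, 57.4, 67.4 and 67.9 at day 14 and 48.5, 73.4, 74.8 and 54.1 in uninjured mice (adjusted p = 0.525). Here too every mouse of day 14 lay above those of day 3. Other genes of this kind were Arap2, a GTPase-activating protein gene (2.90 ± 1.60 against 56.0 ± 52.9 CPM, adjusted p = 0.116), Neurl3, a ubiquitin ligase gene (21 ± 11.5 against 96.8 ± 53.3, adjusted p = 0.282), and Efcab14 (110.0 ± 29.6 against 277 ± 91.0, adjusted p = 0.281). On the lower side the flippase gene Atp8a1 was 411 ± 47.7 CPM at day 3 and 155 ± 18.6 at day 14 (adjusted p = 0.0745).

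Cuprizone injury gave a second early and late pair on 1 plate, with demyelination as the early and remyelination as the late stage in corpus callosum, and no sample in common with the axotomy pair. A test of the difference between the 2 late minus early changes called 10 of 18233 genes, 0.0548%, of which 7 are mitochondrially encoded. In that fit mt-Cytb was 9746, 8777, 8764 and 6910.1 CPM at day 3 and 3668, 3384, 4722 and 4260.3 at day 14 after axotomy. Under cuprizone it was 5479.5, 7276, 7500.2 and 6152 CPM in demyelination and 8972, 11708, 7738 and 8116 in remyelination. Every mouse was lower at the late stage after axotomy, and every remyelination mouse was higher than every demyelination mouse. The change after axotomy minus that under cuprizone was -1.56 ± 0.22 SE on the log2 scale (adjusted p = 0.00471), and it was past the threshold in every alternative fit. For mt-Co1 it was -1.43 ± 0.26 SE, for mt-Rnr1 -1.72 ± 0.30 SE, for mt-Rnr2 -1.36 ± 0.26 SE, for mt-Nd1 -1.35 ± 0.23 SE, for mt-Nd4 -1.58 ± 0.27 SE and for mt-Nd5 -1.68 ± 0.31 SE, with adjusted p from 0.0211 to 0.0349. These 6 were called in 9 to 13 of 22 alternative fits each. Only 1 gene of the lower direction passed without day 3 replicate 1 or 2, day 14 replicate 2, or demyelination replicate 1 or 4, and with thinned cells. The other 3 were Ctsd, the cathepsin D gene, Ccl6 and Tbc1d10b, a Rab GTPase-activating protein gene, all higher in the axotomy change than in the cuprizone change. Ctsd was 5306 ± 784 and 4889 ± 742 CPM at days 3 and 14, against 49137 ± 4021 in demyelination and 22164 ± 2269.7 in remyelination. Ccl6 was 114 ± 51.0 and 259 ± 61.6 after axotomy and 3697 ± 796 and 1394 ± 525 under cuprizone. Tbc1d10b had 0, 0, 0 and 0.0885 CPM in remyelination, so its difference rests on near-zero levels there, and it was lost in every fit without 1 mouse. Rac2, Ly86 and Gatm did not pass this test. Rac2 was 692 ± 171 CPM in demyelination and 276 ± 91.7 in remyelination, and its change after axotomy minus that under cuprizone was -0.30 ± 0.41 SE (adjusted p = 0.93). For Ly86 it was -0.20 ± 0.27 SE (adjusted p = 0.928) and for Gatm -0.85 ± 0.24 SE (adjusted p = 0.392). The tissues differ between the injuries, and remyelination cells were of lower yield (67.9% of wells kept). Their median was 1517 genes and 18.4% spike-in reads per cell, against 2137 and 10.8% in demyelination. After axotomy the medians were 2958.5 genes and 9.15% at day 3, and 2742 and 12.4% at day 14. Whether this bears on the mitochondrial levels was not tested.

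**Figure D5:**
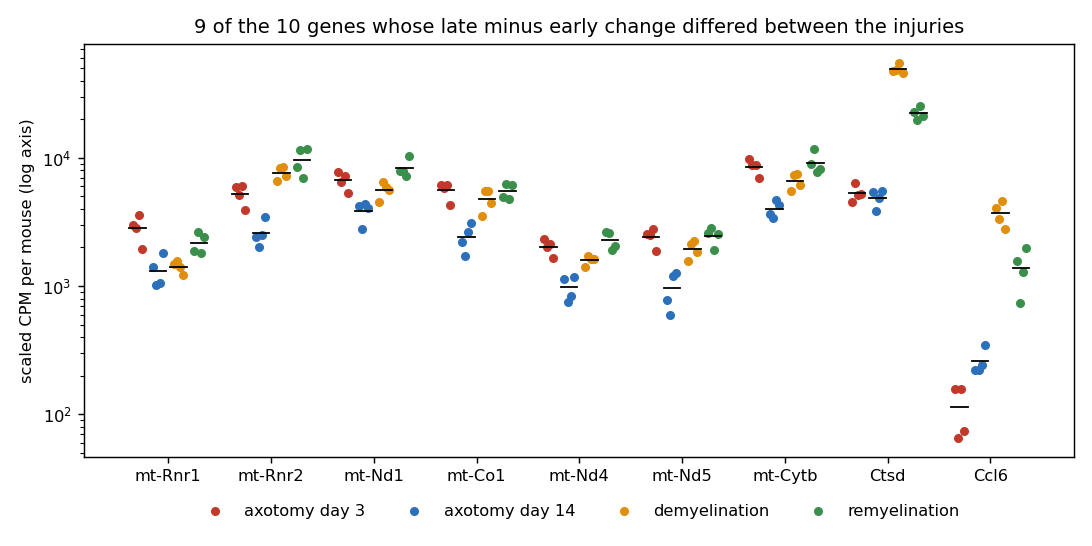
Scaled CPM on a log axis in each of 4 mice for axotomy day 3 (red), axotomy day 14 (blue), cuprizone demyelination (orange) and remyelination (green), with a bar at the mean, for 9 of the 10 genes past the test of the difference. For the 7 mitochondrial RNAs blue lies below red and the mean of green lies above that of orange, as in mt-Cytb with means of 8549, 4009, 6602 and 9134 CPM.

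No marker gene of another cell type passed the threshold. Summed CPM over the 11 monocyte genes tested was 76.2 to 291 at day 3 and 62.0 to 146 at day 14, and over 10 neuronal genes 64.4 to 415 and 55.0 to 149. The monocyte genes Ccr2 and Ly6c2 had means of 14.8 and 1.83 CPM at day 3 and 9.64 and 1.12 at day 14. Over 5 border macrophage genes the sums were 33.1 to 184 and 57.7 to 185, with Mrc1, which encodes CD206, at 2.13 and 2.16 CPM. Over 8 oligodendrocyte genes they were 284 to 406 and 264 to 415, and over 10 astrocyte genes 595 to 958 and 472 to 808. The neuronal synaptic gene Snap25 was 1.15, 74.7, 36.5 and 379.9 CPM at day 3 and 16.8, 55.3, 23.8 and 27.2 at day 14, and myelin gene Mbp 0.459, 2.26, 11.7 and 4.19 against 64.7, 60.0, 0.745 and 139.7 (adjusted p = 0.936 and 0.541). Their part in the results was not tested.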

How the data were processed

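Single microglia were sequenced by Smart-seq2, which keeps no strand and has no molecular identifiers. The deposited values are whole read counts per gene and well, and the submitters' processing notes name STAR 2.5.2b, featureCounts 1.5.1 and GRCm38. Which annotation release was counted, and with which strand setting, is not given in the sources used here, so reads of overlapping genes cannot be told apart. Positions and names come from GENCODE vM21, which held 48349 of 48709 gene IDs.

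Counts of kept wells were summed per replicate label. Spike-ins were left out of library sizes. The 12 sums of uninjured, day 3 and day 14 facial nucleus entered edgeR 4.0.16 (R 4.3.3; TMM, filterByExpr with a minimum count of 10 and total of 15, robust quasi-likelihood test, Benjamini-Hochberg threshold 0.05). The comparison with cuprizone used 16 sums and the same test. Shares of cells with a read were computed after thinning each well to 20000 counts and tested by exact two-sided permutation over mice, adjusted over 17 genes. Within day 3 and within day 14 no 2 mouse sums held identical values, and other pairs were not compared. No doublet caller was run, since wells were sorted singly. The edgeR step was also run on simulated counts, and no result here rests on that run. In the main fit the common coefficient of variation between mice of a group was 128.8%. Nothing says that the mice were independent beyond their labels, and the p-values take them as independent. Those of edgeR set a difference against a spread estimated over all sums fitted, the uninjured ones included for the comparison of days.

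Named genes were those past the threshold, the 12 with the lowest p in each direction without overlap and with at least 50 CPM, the 3 of each list with the lowest p at 10 CPM or more, the share panel and marker genes. Genes past the comparison with cuprizone were named after their values were seen. The members and gene lists were chosen with earlier results of these data known. Alternatives were DESeq2 1.42.0, limma 3.58.1 on per-cell log2 means, other scalings, filters and sample sets, and leaving out each mouse. One gene is not reported here.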

Additional observations from a re-analysis of the deposited data

Results flagged for a closer look

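Some values stood far from the other 3 mice of their group, by a rule on the gap to the nearest mouse relative to the range. It was met in 9 of 138 groups of 4 examined, and chance alone would mark about 1 in 20. At day 14, replicate 1 was the high mouse for 3 cell cycle genes: Ube2c at 1.97 CPM, Pimreg at 3.78 and the G1 cyclin gene Ccne1 at 1.48. Replicate 2 of day 14 had 22.1 CPM of Hmgcs1 and replicate 3 had 893 CPM of Cxcl10. Replicate 2 of day 14 had 0% dividing cells, where the other 3 mice had 2.27% to 2.5%. That is a difference of 1 cell, since each of those 3 mice had 1 dividing cell. At day 3, Tubb5 was low in replicate 1 at 810 CPM, Cst7 was high in replicate 3 at 92.3 CPM, and H2-Aa was high in replicate 4 at 292 CPM.

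The late minus early change differed between axotomy and cuprizone in 10 genes by edgeR's quasi-likelihood test of the difference (adjusted p from 0.00471 to 0.0349). On the log2 scale the axotomy change minus the cuprizone change was -1.72 for mt-Rnr1, -1.36 for mt-Rnr2, -1.35 for mt-Nd1, -1.43 for mt-Co1, -1.58 for mt-Nd4, -1.68 for mt-Nd5 and -1.56 for mt-Cytb. It was 1.03 for Ctsd, 2.60 for Ccl6 and 10.1 for Tbc1d10b.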

How the results depend on the processing

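Directions of the 5 called genes held in every alternative, but calls were lost often: mt-Cytb kept its call in 18 of 25, mt-Co1 in 12 of 25, Rac2 and Gatm in 10 of 26 each and Ly86 in 9 of 26. The count of 5 calls became 362 with DESeq2, 3 with RLE scaling, 83 without the filter on low counts, 1 with both days fitted alone (none of the 5), 23 with all 10 groups, 1 with each cell thinned, 46 with limma on per-cell means (1 of the 5 among them), and 0 without the filter on wells (1255 genes at an unadjusted p under 0.05 by edgeR), without dividing cells and without mitochondrial reads. Leaving out 1 mouse gave 0 to 20 calls, with 3, 1, 6 and 8 when it was an uninjured mouse, an alternative chosen after seeing the data. The 3 counts of 0 had 1705 genes (without day 3 replicate 1), 1651 (day 3 replicate 2) and 1401 (day 14 replicate 2) at an unadjusted p under 0.05. DESeq2 called 231 genes higher and 131 lower, and the median over all genes was 0.30 there, 0.22 with RLE and 0.19 with upper-quartile scaling against 0.10.

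The 10 genes that differed between the injuries became 631 with DESeq2, 80 without the filter on low counts, 3 with thinned cells and 22 with all 10 groups. Leaving out 1 mouse gave 1 to 15 calls, with 1 without demyelination replicate 1 and 15 without remyelination replicate 3. The shares of cells gave 0 of 17 genes in every alternative (0 to 0 without 1 mouse). With the replicate number as a block, 2 genes were called between the days and 2 between the injuries. Same-numbered mice did not deviate together (correlations of -0.05, -0.01, 0.01 and -0.01 over 3949 genes), and the block moved P2ry12 to -0.037.

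Without dividing cells the sign turned for Tubb5 (0.26), Mki67 (1.29), Top2a (0.92), P2ry12 (-0.11) and Spp1 (0.22) on the log2 scale, and the Mki67 share was 0.684 percentage points higher at day 14. The cells left out were chosen by their reads of mitosis genes, 24 at day 3 and 3 at day 14. The turns of the proliferation genes Mki67 and Top2a are therefore not independent of that choice. Leaving out 1 mouse turned P2ry12 to -0.03 (day 3 replicate 3), -0.0010 (day 3 replicate 4), -0.06 (day 14 replicate 2) and -0.15 (day 14 replicate 4), Tmem119 to -0.067 (day 14 replicate 4), Spp1 to 0.011 (day 3 replicate 3) and Cxcl10 to -6.54 (day 14 replicate 3). Over these fits Spp1 ran from -1.41 to 0.011 and Cxcl10 from -6.54 to 8.34. Apart from sample sets and filters, whose construction is stated, the cause of these shifts was not tested.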

Other observations

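Besides Gatm, 5 genes of creatine synthesis and transport were tested and none passed the threshold, and the list was split, 3 lower and 3 higher (median log2 fold change 0.16). Of 8 nuclear long non-coding RNAs 5 were higher at day 14 (median 0.41), 3 with an unadjusted p under 0.05 and none past the threshold by edgeR. Over all genes 2.84% had such a p in the higher direction. Among markers of blood cells, summed levels over 4 neutrophil genes were 316 to 553 CPM at day 3 and 276 to 574 at day 14. Most of this was Csf3r, at 441 ± 96.5 and 432 ± 131 CPM, while Mpo had means of 3.07 and 12.2. Over 6 T and NK cell genes the sums were 17.6 to 46.1 and 8.44 to 21.7. Over 5 B cell genes they were 464 to 510.2 and 504 to 645, mostly from Ighm at 419 ± 31.9 and 517 ± 31.6 CPM. Over 7 endothelial genes the sums were 63.1 to 158 and 33.5 to 248, and the 1 erythroid gene tested was at most 4.69 CPM.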
